A study of Mus musculus with 39 samples.

Results

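The claudin and junction genes described here are the claudins Cldn2, Cldn15, Cldn3, Cldn4 and Cldn7, the tight junction genes Ocln, F11r and Tjp1, and the adherens and desmosome genes Cdh1 and Jup. They were chosen by name, by a rule that uses no measured value although earlier results of these data were known, and all 10 were found among the 25219 genes of the expression table. Expression was measured in 39 single crypt epithelial cells sorted as tdTomato+ Sca1- from mice with the alleles Lgr5-EGFP-Ires-CreERT2 and Rosa-lsl-tdTomato. In this line Cre is driven from the Lgr5 locus, so tamoxifen leaves a lasting red label in cells that express Lgr5 at that time and in their descendants. All 39 cells came from mice given tamoxifen 24 h before a total body dose of 10 Gy, and all were taken 48 h after it. No unirradiated cells were analysed here, and the labels do not say which mouse a cell came from, so the cells stand for 1 biological sample. Spreads are therefore given over cells, and no test was made.

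Tight junctions seal the space between neighbouring epithelial cells, and claudins are the membrane proteins that form their strands and decide which ions pass. In the small intestine Cldn2, which forms a pore for cations and water, is known mainly from the crypt, and Cldn4 and Cldn7 are described mainly from the villus. Cldn15, another cation pore, and Cldn3, a sealing claudin, are found along both. Below the tight junction, E-cadherin (Cdh1) and its catenins hold the cells together at the adherens junction, and desmosomes anchor the keratin filaments.

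The sequences upstream of 3 claudins are shown because Cldn15 and Cldn7 had the most alike levels over the cells and Cldn2 is the crypt-type claudin set against Cldn7. Each is the 250 bases before the annotated start in RefSeq (GRCm38.p6), read 5′ to 3′ on the gene's strand. Cldn2 is at chrX:139800558-139800807, Cldn15 at chr5:136967619-136967868 and Cldn7 at chr11:69964529-69964778, all on the plus strand. Capitals mark matches on either strand to any of 4 searched motifs. The TATA box was searched as TATAAA and the GC box as GGGCGG. Sites of TCF/LEF factors were searched as CTTTGA, and those of CDX factors as CATAAA, which shares 5 letters with the TATA box.
Cldn2: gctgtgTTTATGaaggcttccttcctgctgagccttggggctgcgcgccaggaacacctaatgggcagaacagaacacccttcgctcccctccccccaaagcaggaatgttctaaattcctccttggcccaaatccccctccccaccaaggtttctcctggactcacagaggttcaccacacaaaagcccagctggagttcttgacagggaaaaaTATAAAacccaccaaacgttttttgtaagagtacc
Cldn15: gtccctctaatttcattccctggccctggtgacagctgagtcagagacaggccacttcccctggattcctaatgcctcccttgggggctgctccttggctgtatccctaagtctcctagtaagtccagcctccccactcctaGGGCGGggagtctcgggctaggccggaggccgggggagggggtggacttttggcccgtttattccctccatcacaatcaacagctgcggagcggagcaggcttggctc
Cldn7: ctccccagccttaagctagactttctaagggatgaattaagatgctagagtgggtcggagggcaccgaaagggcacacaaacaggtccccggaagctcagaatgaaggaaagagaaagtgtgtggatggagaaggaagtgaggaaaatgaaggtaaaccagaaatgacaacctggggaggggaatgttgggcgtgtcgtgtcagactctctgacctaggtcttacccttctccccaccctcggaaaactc

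The Cldn2 window held TATAAA starting 35 bases before the start and, as TTTATG on this strand, the CDX letters 244 bases before it. The Cldn15 window held GGGCGG 108 bases before the start, and none of the searched letters was in the Cldn7 window. Among 32536 promoter windows of the same length, TATAAA was in 12.3%, CATAAA in 10.8%, GGGCGG in 32.97% and CTTTGA in 13.9%. The windows of Cldn4 and Cldn3 (not printed) each held the GC box letters once, 44 and 236 bases before the start. GC content was 52% for Cldn2, 51.2% for Cldn7, 60.8% for Cldn15 and Cldn3 and 62% for Cldn4, beside a median of 52.4% over all windows. The deposited gene positions (mm10) put Cldn2 at chrX:139800808-139811388, Cldn15 at chr5:136967869-136975845 and Cldn7 at chr11:69964779-69967886. Cldn4 (chr5:134945124-134946934, minus strand) and Cldn3 (chr5:134986214-134987476, plus strand) are neighbours with 39.3 kb between them. The other genes lie on chromosomes 13 (Ocln), 1 (F11r), 7 (Tjp1), 8 (Cdh1) and 11 (Jup).

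The labelled cell type was compared with its markers before the values were used. Epcam, Krt8 and Krt18, which mark epithelium, were at 1 FPKM or more in 39 of 39 cells, while Cd3e, Col1a1, Col3a1, Pecam1 and Acta2 were at 0 in all. Other markers were less clear-cut. Of the epithelial list, Krt19 was detected in 37 cells, Vil1 in 31 and Cdx2 in 2, and of the immune list, Cd74 was detected in 20 cells at up to 613 FPKM and Lyz2 in 1 cell, while Ptprc was detected in 0 cells. Vim, of the stromal list, was detected in 1 cell. FPKM is a gene's fragment count divided by its transcript length and by the total of its cell, and a gene at 1 FPKM or more is called detected. Estimated counts on genes ran from 398418 to 3903971 per cell with a median of 3089188, and 2287 to 5779 genes were detected. Ly6a, which encodes Sca1, was detected in 4 cells despite the Sca1- gate, at 477 and 509 FPKM in cells 5 and 34 and at 3.44 and 1.26 FPKM in cells 2 and 43. All 4 fell in group 2 of the grouping that follows. The cells were also divided into 2 groups by clustering on 98 genes of an intestinal stem cell signature, which holds 0 of the 10 genes described. Group 1 (22 cells, higher signature) and group 2 (17 cells) differed in depth, with medians of 3393504 and 2704767 counts, and the part of depth in differences between them was not tested.

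Among the claudins known from the crypt, Cldn2 was detected in 32 of 39 cells (82.1%, exact Clopper-Pearson 95% interval 66.5 to 92.5%). Its level ranged from 0 to 259 FPKM with a median of 38.2 FPKM, and 7 cells were at 100 FPKM or more. The highest values were 259 FPKM in cell 29 and 248 FPKM in cell 56, both in group 2. Cldn2 was thus graded across the cells rather than shared evenly, and it was absent or nearly so in 7 of them. In group 2 it was split, with 5 cells at or below 0.0962 FPKM and the other 12 cells between 40.5 and 259 FPKM. The 5 low cells held 2335 to 5666 detected genes and the other 12 held 2287 to 5779, and the part of depth in the split was not tested. In group 1 the 20 detected values filled a lower range, from 1.82 to 129 FPKM.

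Cldn15 was detected in 30 cells (76.9%, 60.7 to 88.9%), from 0 to 675 FPKM with a median of 86.5 FPKM. Its values fell on either side of a gap, with 9 cells at or below 0.453 FPKM and 30 cells at or above 2.91 FPKM, where the median was 163 FPKM. Of the 9 low cells, 7 were in group 2. These 9 cells held 2287 to 4658 detected genes, against 3191 to 5779 in the other 30, and the part of this difference in the gap was not tested. Cell 54 had the highest value and was also 1 of the 7 cells with Cldn2 below 1 FPKM, at 0.539 FPKM.

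Cldn3, a sealing claudin of crypt and villus, was detected in 38 of 39 cells (97.4%, 86.5 to 99.9%). It ranged from 0.195 to 497 FPKM with a median of 95.3 FPKM, and its highest value was in cell 56, which also had the second highest Cldn2. Its span overlaps Wbscr25 on the opposite strand, and Wbscr25 was detected in 2 cells and reached 3.65 FPKM at most. Of the 10 genes, Cldn3 had the largest rho in size with depth, a Spearman rho of -0.49 with estimated counts over the 39 cells, and -0.32 with genes detected.

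The villus-type claudins behaved unlike each other. Cldn7 was detected in all 39 cells (100%, 91.0 to 100%) and had the highest median of the 10 genes, 242 FPKM, within a range of 5.73 to 877 FPKM. Cell 56 had the lowest value and cell 43 the highest, and 33 cells were at 100 FPKM or more. Cldn4 was at 0 in 25 cells and was detected in 12 (30.8%, 17.02 to 47.6%), with a median of 0 and a highest value of 80.0 FPKM in cell 94. In the 12 cells with Cldn4 the median was 28.4 FPKM, and none reached 100 FPKM. Cells with and without Cldn4 were alike in the median number of detected genes, 4632.5 and 4592.

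**Figure D1:**
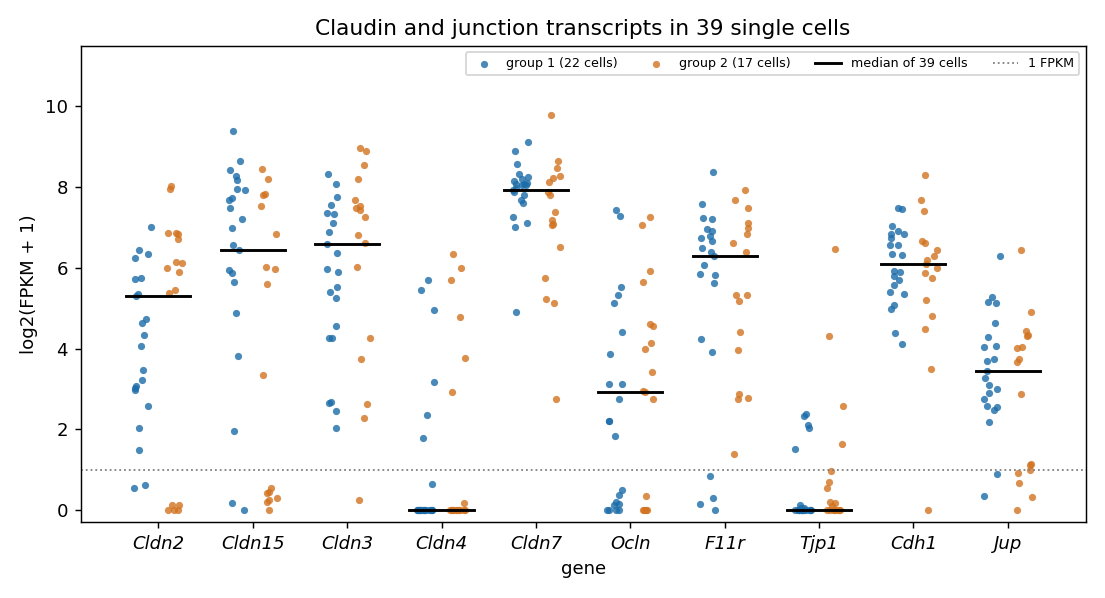
Level of each gene in each of the 39 cells on the log2(FPKM + 1) scale, with 1 point a cell, coloured by group, the median of all cells as a black bar and 1 FPKM as a dotted line. Cldn7 lies in a narrow band at the top, Cldn15 has separate low cells, and Cldn4 and Tjp1 have medians of 0. Cldn2 is graded over all cells and has separate low cells in 1 group only.

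Of the other tight junction membrane proteins, Ocln, which encodes occludin, was detected in 25 cells (64.1%, 47.2 to 78.8%). It ranged from 0 to 172 FPKM with a median of 6.66 FPKM, and only 4 cells reached 100 FPKM. F11r, which encodes the junctional adhesion molecule JAM-A, was more even, detected in 35 cells (89.7%, 75.8 to 97.1%) with a median of 77.6 FPKM and a highest value of 330 FPKM in cell 76. Its 4 cells below 1 FPKM were all in group 1.

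Tjp1, which encodes the scaffold ZO-1, was detected in 9 cells (23.1%, 11.1 to 39.3%), the lowest share of the 10 genes at this limit. Its values ran from 0 to 88.3 FPKM with a median of 0, and cell 92 alone held 66.2% of the sum over all cells. The next value was 18.9 FPKM in cell 2, so the mean of 3.42 ± 14.3 FPKM (SD over 39 cells) rests on 1 cell. Tjp1 has the longest transcript of the 10, 7114 bases, so that 1 FPKM stood for a median of 25.8 estimated counts, against 4.58 for the shortest, Cldn3. With every cell thinned to 600000 reads and a single read taken as detection, Tjp1 was seen in 39.5% of 38 cells and Cldn4 in 34.2%, so the order of these genes was the reverse. With any value above 0 it was also reversed, at 46.2% for Tjp1 and 35.9% for Cldn4.

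Cdh1, the adherens junction cadherin, was detected in 38 cells (97.4%) at 0 to 312 FPKM with a median of 68.0 FPKM. It was the least variable of the 10 genes apart from Cldn7 and Tjp1 on the log2(FPKM + 1) scale, with an SD over cells of 1.41 beside 1.30 for Cldn7, 1.39 for Tjp1 and 3.17 for Cldn15. For Tjp1, 30 of 39 cells were below 1 FPKM and 21 were at 0, so its low SD does not mean an even level. The cell without Cdh1 was cell 79, which had 4 of the 10 genes detected, the fewest of any cell. Jup, which encodes plakoglobin of the adherens and desmosome plaques, was detected in 33 cells (84.6%, 69.5 to 94.1%) at 0 to 86.5 FPKM with a median of 9.94 FPKM. Cells held 4 to 10 of the genes with a median of 8, and this number had a rho of 0.43 with genes detected.

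By median FPKM, which is corrected for transcript length, the order was Cldn7, Cldn3, Cldn15, F11r, Cdh1, Cldn2, Jup and Ocln, with Cldn4 and Tjp1 both at 0. No neighbours in this order differed by more than the spread over cells. Cldn7 was above Cldn3 in 30 of 39 cells, with a mean difference of 1.68 ± 2.85 on the log2(FPKM + 1) scale (SD over cells), and Cdh1 was above Cldn2 in 27 cells by 1.62 ± 2.66. Over all 45 pairs, the mean difference exceeded its SD in 17. Cldn7 exceeded Cldn2 by such a margin, 3.25 ± 3.04 on this scale, and was higher in 35 of 39 cells. Cldn7 also exceeded Cldn4, by 6.17 ± 2.50, in 38 cells.

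The balance of crypt-type and villus-type claudins was taken per cell as log2 of Cldn2 against the sum of Cldn4 and Cldn7, with 1 FPKM added to each side. It ran from -8.27 in cell 16 to 5.21 in cell 56 with a median of -3.54 and an SD over cells of 3.04. Cldn2 exceeded the sum in 4 cells, numbered 9, 29, 56 and 86, of which 3 were in group 2. The sum was higher in the other 35 cells. Cldn4 made up under 5% of it in 33 of the 39 cells, but at least 25% in cells 51, 67, 93 and 94, with 60.4% in cell 94. The median balance was -4.26 in group 1 and -1.69 in group 2, with SDs over cells of 2.34 and 3.72, so the groups overlapped widely. The 4 cells with Cldn2 above the sum differed in their levels. Cell 29 had 259 FPKM of Cldn2 and 134 FPKM of Cldn7, whereas cell 86 had 86.6 and 28.96 FPKM. Cells 9, 29, 56 and 86 held 2287, 3785, 3204 and 4438 detected genes. Without the 2 cells under 2500 genes, Cldn2 exceeded the sum in 3 cells.

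Within the summed FPKM of the 5 claudins, which ranged from 134 to 1485 with a median of 536, Cldn7 had the largest share in 23 cells. Cldn3 led in 8 cells, Cldn15 in 6, Cldn2 in 2 and Cldn4 in none. The median shares were 44.1% for Cldn7, 15.01% for Cldn15, 14.8% for Cldn3, 6.20% for Cldn2 and 0% for Cldn4. The leading claudin held at least 50% of the sum in 27 cells, so most cells were dominated by a single claudin transcript. Group 1 was led by Cldn7 in 15 cells, Cldn15 in 5, Cldn3 in 1 and Cldn2 in 1. Group 2 was led by Cldn7 in 8 cells and Cldn3 in 7, with Cldn15 and Cldn2 leading in 1 cell each. Cldn3 thus led in 7 of 17 cells of group 2 and in 1 of 22 of group 1, and the shallower depth of group 2 stands beside its rho of -0.49 with counts.

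**Figure D2:**
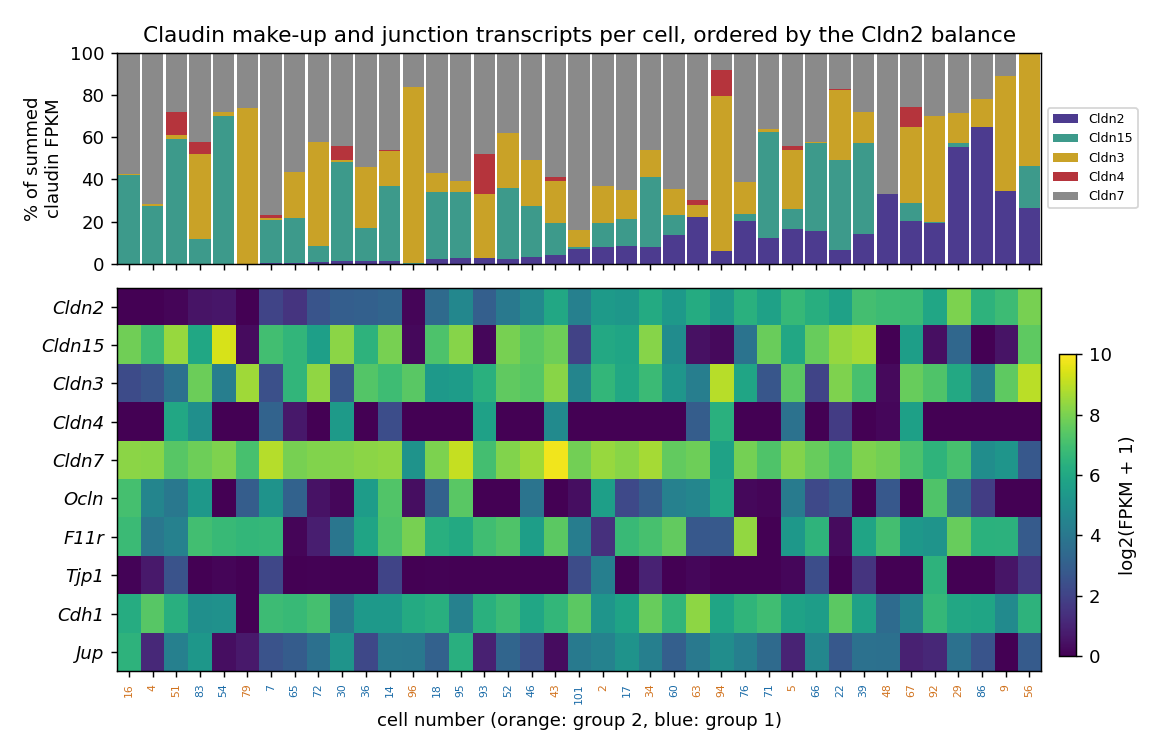
Share of each claudin in the summed claudin FPKM of each cell (top, in %) and log2(FPKM + 1) of the 10 genes (bottom), with cells ordered from left to right by rising balance of Cldn2 against Cldn4 and Cldn7. Cldn7 leads in 23 cells, mostly at the left and centre, and Cldn2 exceeds the sum of Cldn4 and Cldn7 in the last 4 cells at the right.

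Every cell had Cldn7, so all 32 cells with Cldn2 also had a villus-type claudin detected, and the other 7 cells had the villus type without Cldn2. Cldn2 and Cldn4 were detected together in 10 cells, Cldn2 without Cldn4 in 22, Cldn4 without Cldn2 in 2 and neither in 5. Cldn2 and Cldn15 were detected together in 25 cells, Cldn2 alone in 7, Cldn15 alone in 5 and neither in 2. All 5 claudins were detected in 7 cells, 4 in 23 cells, 3 in 6 cells and 2 in 3 cells (numbers 48, 79 and 96, all in group 2).

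Levels of the 10 genes were mostly unrelated across the cells. Over 45 pairs, Spearman rho ran from -0.29 to 0.54 with a median of -0.04, and 43 pairs were under 0.3 in size. All points share depth and the number of genes detected, which had a rho of 0.45 with Cldn7, 0.35 with Cldn15, 0.33 with Cdh1 and -0.16 with Cldn2. Cldn15 and Cldn7 had the highest rho, 0.54 over 39 cells and 0.45 given the number of genes detected. Leaving out each cell in turn kept it between 0.51 and 0.59, and it was 0.36 in group 1 and 0.54 in group 2. The 9 cells with Cldn15 below 1 FPKM had 28.96 to 234 FPKM of Cldn7 with a median of 91.0 FPKM, and the other 30 cells had 5.73 to 877 FPKM with a median of 270.0 FPKM. For comparison, 0.453% of 6717945 pairs of genes detected in at least 20 cells had a rho of 0.5 or more and 0.0396% had -0.5 or less, while 10.5% were at 0.3 or more in size. Cldn4, detected in 12 cells, and Tjp1, in 9, are under that limit of 20 cells, so pairs with them are of another kind.

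Ocln and Jup were the other pair above 0.3, at 0.34 over 39 cells, 0.30 given genes detected, 0.12 in group 1 and 0.58 in group 2. Over the 39 cells, the crypt-type and villus-type claudins had negative rho values under 0.3 in size. Cldn2 had a rho of -0.26 with Cldn7 (-0.22 given genes detected) and -0.09 with Cldn4, beside -0.29 with Ocln. Within group 1 the rho of Cldn2 and Cldn4 was -0.52 and within group 2 it was 0.04, from 6 cells with Cldn4 in each. The chromosomal neighbours Cldn3 and Cldn4 had a rho of 0.10.

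**Figure D3:**
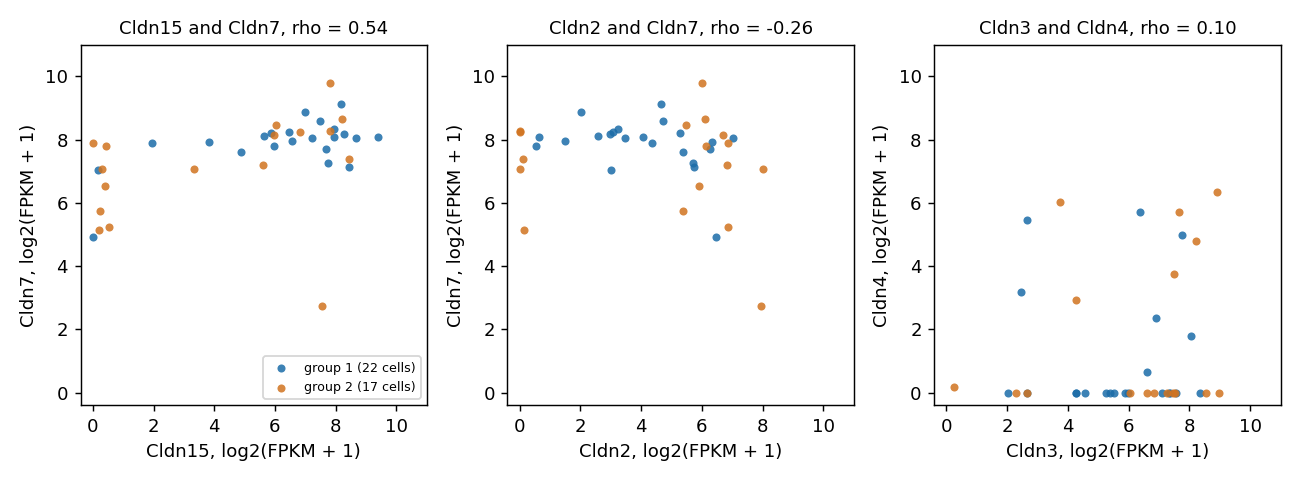
Levels of 3 claudin pairs in each cell, both axes as log2(FPKM + 1), with 1 point a cell coloured by group. Cells low in Cldn15 lie lower in Cldn7 (rho 0.54), Cldn2 and Cldn7 have a rho of -0.26, and Cldn4 is at 0 over most of the range of Cldn3 (rho 0.10).

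**Figure D4:**
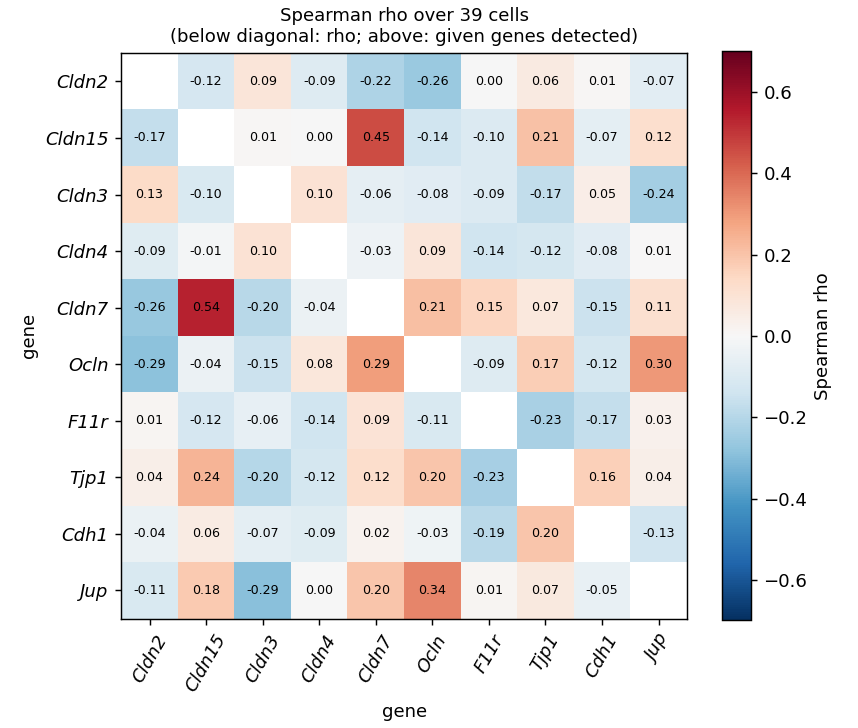
Spearman rho between the levels of the 10 genes over 39 cells, with rho below the diagonal and rho given the number of detected genes above it. Cldn15 and Cldn7 stand out at 0.54 and 0.45, and Ocln and Jup follow at 0.34 and 0.30.

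Between the groups set by the stem cell signature, 1 of the 10 genes differed by at least 1 on the mean log2(FPKM + 1) scale. Cldn15 was higher in group 1 by 2.13, with a pooled SD over cells of 3.02, and its median was 136 FPKM in group 1 and 47.9 FPKM in group 2. Of all 9804 genes whose mean level reached 1 FPKM, 19.2% were higher in group 1 by at least 1 and 3.35% were higher in group 2, so 1 of 10 lies below the share of all genes for group 1. The Cldn15 difference was from 1.88 to 2.43 with each cell left out in turn, and 3.25% of genes had a larger one. Cldn15 was detected in 20 of 22 cells of group 1 and 10 of 17 of group 2. Detected cells had medians of 163 and 149 FPKM. At any value above 0, the cells were 21 of 22 and 16 of 17. The difference thus lay mainly in how many cells were below 1 FPKM, not in how many were at 0. After thinning to 600000 reads, Cldn15 was seen in 20 of 22 and 11 of 16 cells. On another scale, the log2 ratio of mean FPKM, the Cldn15 difference was 0.89 and no longer reached 1, while Cldn2 (-1.29), Cldn4 (-1.15) and Tjp1 (-3.18) passed 1 on the side of group 2. On this scale 26% of all genes passed 1 on the side of group 1 and 21.8% on that of group 2. Single cells moved these values, since the ratio was -0.66 for Cldn4 without cell 94, -1.22 for Tjp1 without cell 92 and 1.16 for Cldn15 without cell 51.

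Without the 4 cells with Ly6a, the mean log2 difference of Cldn15 was 3.03 and that of Cldn7 was 1.23, past 1 beside 25.2% of all genes higher in group 1 and 3.8% in group 2. The other 8 genes then lay between -0.77 and 0.53, with Cldn2 at -0.13.

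Over all 39 cells, the 9 genes other than Cldn15 differed by less than 1 in mean log2(FPKM + 1), and by less than the spread over cells. Cldn7 was higher in group 1 by 0.73 (pooled SD 1.27), with medians of 263 and 166 FPKM, and Jup by 0.63 and Cdh1 by 0.34. F11r differed by -0.06. The differences of Cldn3, Tjp1, Cldn2, Cldn4 and Ocln were -0.51, -0.56, -0.57, -0.65 and -0.74, on the side of group 2. With each cell left out in turn, they ran from -0.88 to -0.33 for Cldn3, -0.65 to -0.22 for Tjp1 and -0.86 to -0.36 for Cldn2. The ranges were -0.87 to -0.37 for Cldn4, -0.98 to -0.49 for Ocln and 0.46 to 0.90 for Cldn7. The median of the 10 was -0.29, with 4 above 0 and 6 below, beside 0.28 over all 9804 genes, of which 6391 were above 0. For Cldn2 the medians were 17.5 FPKM in group 1 and 62.9 FPKM in group 2, although fewer cells of group 2 had it (12 of 17 against 20 of 22). With a pseudocount of 0.1 FPKM, which weighs cells without the gene more, the Cldn2 difference had the other sign, at 0.09, and those of Tjp1 (-1.09) and Jup (1.001) passed 1, beside 33.9% of all genes higher in group 1 and 8.98% in group 2. Without the 2 cells under 2500 genes, the differences of F11r (0.09) and Cdh1 (-0.11) had the other sign. Leaving out cell 79 alone moved the Cdh1 difference to -0.02, and leaving out any of 13 single cells turned that of F11r.

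**Figure D5:**
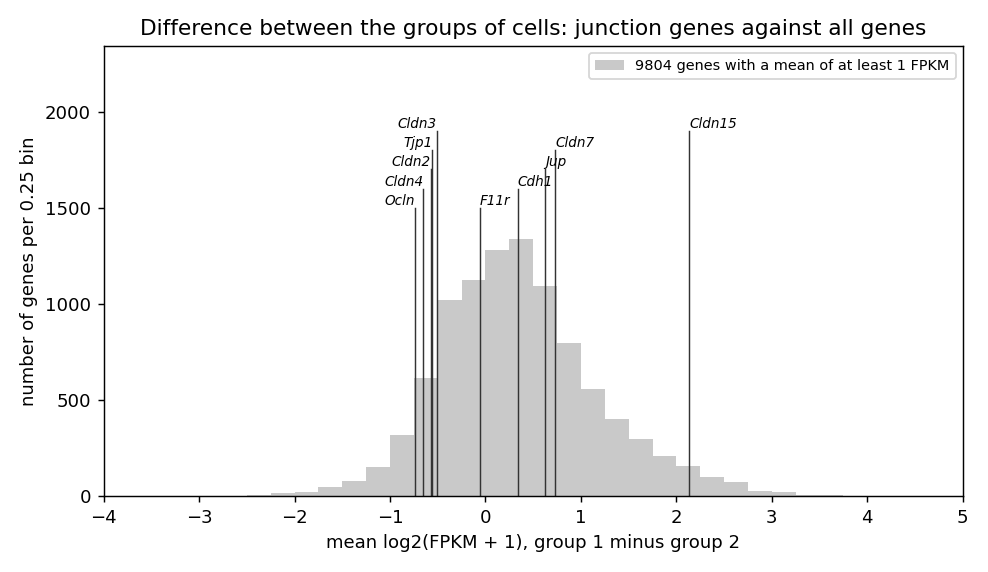
Number of genes by difference in mean log2(FPKM + 1), group 1 minus group 2, in bins of 0.25 for 9804 genes, with lines at the 10 junction genes. Cldn15 lies at 2.13 in the right tail, and the other 9 lie between -0.74 and 0.73, within the bulk of the genes.

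Markers of other cell types were set beside the same genes. The summed enterocyte markers (10 genes, on the log2(FPKM + 1) scale) ranged from 7.87 to 36.1 in group 1 and from 7.59 to 35.3 in group 2, with medians of 21.2 and 18.3. Cldn7 had a rho of 0.41 with that sum, Cldn15 of 0.37, Cldn3 of 0.13 and Cldn2 of 0.12. Given genes detected, Cldn3 had the highest, 0.34, with Cldn7 and Cldn15 both at 0.25 and Cldn2 at 0.22. Fabp2 was detected in 35 cells, while Sis and Lct, which define the mature brush border, were detected in 1 cell each. The 6 Paneth cell markers were all detected, with sums of 4.80 to 37.5 in group 1 and 8.18 to 55.5 in group 2, and their rho was -0.33 with Cldn7, -0.30 with Cldn15 and 0.34 with Cdh1. Cdh1 had a rho of 0.38 with the 5 proliferation markers, whose sums were 15.1 to 38.6 in group 1 and 0.0438 to 34.1 in group 2, and 0.25 given genes detected. The 4 tuft cell markers were all detected, with sums of 0 to 3.59 in group 1 and 0 to 32.1 in group 2, and had a rho of -0.28 with Cldn7 and -0.27 with Tjp1. The 6 goblet cell markers were also all detected, with sums of 6.86 to 23.9 and 4.54 to 57.9, and had a rho of -0.43 with Jup. The 6 stem cell markers had medians of 33.6 and 17.7 in the groups and a rho of -0.19 with Cldn2. The groups were themselves set by a stem cell signature, so the gap between these medians is not independent of the grouping. The part of all these cell type markers in the levels of the junction genes was not tested.

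For each claudin the genes with the most alike levels were sought among those detected in at least 20 cells, by Spearman rho over the 39 cells. Cldn7 was closest to Stard10 (0.68), Polr2h (0.63) and Psmg3 (0.60), and 45 of 3665 genes were at 0.5 or more. Cldn15 was closest to Cct5 (0.64), Cdc42se1 (0.58) and Arf1 (0.58), with 32 genes at 0.5 or more. Given genes detected, these values were 0.68, 0.52 and 0.50 for Cldn7 and 0.61, 0.52 and 0.56 for Cldn15. These 45 and 32 genes were 1.23% and 0.873% of those compared, beside 0.453% over all pairs. Cldn2 and Cldn4 had 3 such genes each (0.0819% and 0.0818%), for Cldn2 D17H6S53E (0.56), the pseudogene Rps15a-ps4 (0.55) and Cct4 (0.51), and for Cldn4 Atp6v1d (0.54), Pomp (0.51) and Lmna (0.51). Cldn3 had none at 0.5, with Omd (0.50), Slfn5 (0.49) and Nsl1 (0.47) closest. At a rho of -0.5 or less, Cldn3 had 18 genes (0.491%), Cldn7 had 4 (0.109%), Cldn2 had 2, Cldn4 had 1 and Cldn15 had none, beside 0.0396% of all pairs. Cldn4 was itself detected in 12 cells, under the limit of 20 for those pairs. Counting of Rps15a-ps4 is uncertain because it resembles its parent gene, and Cdc42se1, Omd and Slfn5 overlap genes on the opposite strand, from which their reads cannot be told apart without strand.

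Most of the remaining claudins were not detected. Of 16 others in the table, 13 were detected in 0 of 39 cells, which allows a share of up to 9.03% each (exact 95% interval). This limits the share of such cells with the gene at 1 FPKM or more, not the share that expresses it, since a transcript can be lost before amplification. Cldn12 was detected in 12 cells, as many as Cldn4, and reached 111 FPKM in cell 16, Cldn23 in 5 cells with 258 FPKM in cell 43, and Cldn19 in 1 cell. The mean was 7.15 FPKM for Cldn12 and 4.401 FPKM without cell 16. For Cldn23 it was 9.13 FPKM and 2.59 FPKM without cell 43, so both means leaned on 1 cell.

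Of the 59 other junction genes listed, 58 were in the table, 42 were detected in a cell and 14 in at least 20 cells. The best expressed tight junction partners were Cgn, which encodes the plaque protein cingulin, detected in 32 cells at 62.6 ± 100.3 FPKM (mean and SD), and Lsr, a protein of tricellular contacts, detected in 33 cells at 55.7 ± 61.6 FPKM. Marveld2, which encodes tricellulin, followed at 17.1 ± 41.9 FPKM in 14 cells. The mean of Tjp1 was 3.42 FPKM. Epcam, an adhesion protein that binds Cldn7, had a mean of 231 ± 157 FPKM and was in all 39 cells, and Ctnnb1, the catenin bound to Cdh1, had 123 ± 92.9 FPKM in 38 cells. Ctnna1, the catenin that links this complex to actin, had 102 ± 84.7 FPKM in 38 cells. Perp, a desmosome protein, had 96.3 ± 116 FPKM in 34 cells, and the desmosomal cadherins Dsg2 and Dsc2 had 29.004 ± 25.4 and 19.9 ± 33.99 FPKM. Between the groups, 37 of these genes passed the limit of 1 FPKM in mean level. Esam, 1 of the 37, belongs to the signature that set the groups. Of these, 2 (5.41%) were higher in group 1 by at least 1 and 1 (2.70%) in group 2, beside 19.2% and 3.35% of all genes. They were Ctnnd1 (1.44, pooled SD over cells 2.08) and Pvrl2 (1.01, 2.16), both of the adherens junction, and Cldn23 (-1.23, 1.73), each with a spread larger than its difference. The median difference of the 37 genes was 0.14, with 22 above 0 and 15 below, beside 0.28 over all genes.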

How the data were processed

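The data were 39 single cells captured on a microfluidic chip, with SMARTer cDNA and Nextera XT libraries. The authors deposited FPKM values and an estimated count per gene and cell, of which 18.4% of the counts above 0 were not whole (tolerance 1e-06). The submitters' processing notes name bcl2fastq 1.8.4, TopHat2 2.0.14 and mm10 (GRCm38). The counting tool is not given in the sources used here. Of the 10 genes, 8 had the same start or end in RefSeq.

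The 10 genes and all lists were chosen with earlier results of these data known. Levels were log2(FPKM + 1), with detection at 1 FPKM and a mean of at least 1 FPKM for comparisons of groups. Groups came from complete linkage clustering on the stem cell signature that the study lists. The genes named for likeness were the 3 with the highest rho for each claudin. Other junction genes named were the 3 with the highest mean FPKM in each list, and Ctnnd1 and Pvrl2, chosen after their values were seen. Esam was named because it belongs to the signature. Estimated counts were rounded for thinning to 600000 reads, which left out 1 cell. Intervals on shares of cells cover the counting error of 39 cells only, not mice or RNA lost in preparation, and amplified reads without molecular identifiers are not independent molecules. Doublets were not called, since capture sites were inspected under a microscope. No count model was fitted, because cells are not replicates, and all value columns were used. Alternatives were other detection limits, pseudocounts, scaling, linkage and cells left out. The steps were tested on simulated data. Values were computed with scipy 1.17.1, pandas 2.3.3 and numpy 2.4.6 under Python 3.11.15, and plotted with matplotlib 3.10.9.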

Additional observations from a re-analysis of the deposited data

How the results depend on the processing

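Of 149 values recomputed under alternatives, 124 moved by less than a margin set for each kind, and 25 moved more or crossed the limit of 1. The margin was the spread over cells for levels, balance and group differences, and the interval for shares of cells. It was 1.5 times for counts and a fixed change in rho for the 21 correlations. The spread over cells is wide, so the change of sign of Cldn2, from -0.57 to 0.09, stayed within it. With detection at 10 FPKM, the shares of cells were 64.1% for Cldn2, 82.1% for Cldn3, 38.5% for Ocln, 5.13% for Tjp1 and 48.7% for Jup. With any value above 0, they were 94.9% for Cldn15, 100% for Cldn3, 79.5% for Ocln, 97.4% for F11r, 46.2% for Tjp1 and 97.4% for Jup, and thinning gave 39.5% for Tjp1. Rescaling each cell to the same sum over genes raised the median of all 8 genes with a median above 0, to 465 for Cldn7, 195 for Cldn3, 184 for Cldn15, 151 for F11r, 149 for Cdh1, 76.7 for Cldn2, 20.9 for Jup and 12.6 for Ocln. Counting Cldn3 with the villus-type claudins left 2 cells in which Cldn2 was higher. With a pseudocount of 0.1 FPKM, the group difference was -1.09 for Tjp1 and 1.001 for Jup, and 3322 genes were higher by at least 1 in group 1 and 880 in group 2. Rescaling gave 500 genes higher in group 2. The median difference of all genes was then 0.51 and 0.33, beside 0.28. The log2 ratio of mean FPKM, chosen after seeing the data as were leaving out each cell and the values within groups, was -1.29 for Cldn2, 0.89 for Cldn15, -1.15 for Cldn4 and -3.18 for Tjp1, and -1.22 for Tjp1 without cell 92 and -0.66 for Cldn4 without cell 94, with 26% and 21.8% of all genes past 1 on each side. Without the cells with Ly6a, also chosen after seeing the data, the Cldn7 difference was 1.23. Without cell 92, the Tjp1 difference in mean log2 was -0.22, beside -0.56. The causes were not tested, beyond the construction of each alternative. Ward linkage gave the same groups for 39 of 39 cells, so the values under it could not differ. No paired analysis was possible because all cells carry the same labels and belong to 1 group. With 39 cells of unnamed animals, no value here describes variation between mice, and a transcript lost before amplification is listed at 0.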
